A study of Homo sapiens with 10 samples.

Results

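The 8 genes described here encode the core of the BCL2 family: 5 survival proteins (BCL2, BCL2L1, BCL2L2, MCL1 and BCL2A1) and 3 pore-forming effectors (BAX, BAK1 and BOK). They were chosen by gene symbol from the 60898 rows of the count file, with earlier results of these data known, and each symbol stood on 1 row. Survival proteins sit mainly in the outer mitochondrial membrane and hold BAX and BAK1 inactive. BH3-only proteins, the stress sensors of the family, occupy the survival proteins or activate the effectors directly, and the freed effectors open pores through which cytochrome c reaches the cytosol and starts caspase activation. In the developing mouse brain, loss of Bcl2l1 kills immature neurons, loss of Mcl1 kills neural progenitors, and loss of Bax leaves surplus neurons.

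RNA sequencing was carried out on 10 libraries labelled as neural progenitor cells, derived from the established human embryonic stem cell line H1. They form 5 groups of 2 libraries: STAMBP knockout line KO1, STAMBP knockout line KO2, knockout cells given STAMBP (KO+STAMBP), knockout cells given CFLAR (KO+CFLAR) and cells with unedited STAMBP (WT). STAMBP is a deubiquitinase that acts at endosomes, and CFLAR encodes c-FLIP, an inhibitor of caspase-8. Which of the knockout lines was given a construct, how it was delivered, and whether the 2 libraries of each group were grown as separate cultures are not stated in the labels. The p-values may thus measure technical spread alone. KO below is the mean of the KO1 and KO2 group means, each with equal weight, and its 4 libraries are described together unless a line is named.

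On GRCh38 with GENCODE gene models, BCL2 lies at chr18:63123346-63320128 on the minus strand, BCL2L1 at chr20:31664452-31723989 on the minus strand, BCL2L2 at chr14:23298790-23311759 on the plus strand, MCL1 at chr1:150574551-150579738 on the minus strand. BCL2A1 lies at chr15:79960889-79971446 on the minus strand, BAX at chr19:48954815-48961798 on the plus strand, BAK1 at chr6:33572547-33580293 on the minus strand, BOK at chr2:241551424-241574138 on the plus strand.

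Promoter sequence is shown for 3 members that behaved differently from one another: BCL2A1, whose reads came from the knockout libraries alone; BCL2, the survival gene that was lower in KO; and BAX, the effector with the highest level per length. The sequences are RefSeq promoters on GRCh38.p14, each running 5′ to 3′ on the gene's strand from 250 bases before the start site to 50 after it. Capitals mark matches, on either strand, to 6 motifs. The NF-kappaB motif was the loose pattern of GGG, any 5 bases, then CC, and the AP-1 motif was TGANTCA, the site of FOS and JUN proteins. The STAT motif was TTCNNNGAA, and the CRE, which cyclic AMP-responsive factors bind, was TGACGTCA. The TATA box was TATAAA and the E-box of MYC-type factors was CACGTG. A GC box, GGGCGG, the motif of SP1, was searched as well and is left in lower case.
BCL2A1 chr15:79971147-79971446, minus strand: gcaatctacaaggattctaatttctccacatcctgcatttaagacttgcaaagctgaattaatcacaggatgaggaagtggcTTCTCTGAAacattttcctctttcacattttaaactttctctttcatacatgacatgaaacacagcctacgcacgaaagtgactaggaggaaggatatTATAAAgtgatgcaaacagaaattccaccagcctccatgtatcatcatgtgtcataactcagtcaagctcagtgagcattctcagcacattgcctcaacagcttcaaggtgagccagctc
BCL2 chr18:63319720-63320019, minus strand: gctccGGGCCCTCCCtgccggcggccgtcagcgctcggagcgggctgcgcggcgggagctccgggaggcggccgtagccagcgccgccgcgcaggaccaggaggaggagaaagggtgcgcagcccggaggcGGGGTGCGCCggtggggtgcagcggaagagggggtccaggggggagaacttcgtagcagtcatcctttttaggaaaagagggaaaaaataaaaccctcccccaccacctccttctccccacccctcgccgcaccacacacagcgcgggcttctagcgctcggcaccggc
BAX chr19:48954625-48954924, plus strand: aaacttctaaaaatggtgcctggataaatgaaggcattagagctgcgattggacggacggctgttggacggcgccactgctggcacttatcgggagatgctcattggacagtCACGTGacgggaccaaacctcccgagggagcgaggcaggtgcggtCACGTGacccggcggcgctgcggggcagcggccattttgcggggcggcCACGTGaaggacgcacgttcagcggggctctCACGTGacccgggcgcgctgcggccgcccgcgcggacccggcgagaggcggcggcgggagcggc
The BCL2A1 window had 41.0% G and C and 2 CpG, against a median of 58.7% G and C over 35116 RefSeq promoters of the same length, and 13.0% of those promoters had a lower GC content. It held a STAT match that begins 168 bases before the start site, a motif found in 7.66% of all promoters, and a TATAAA that begins 70 bases before it, found in 11.5%. The BCL2 window had 70.7% G and C and 31 CpG, with NF-kappaB matches beginning 245 and 119 bases before the start site. That loose pattern occurred in 58.7% of all promoters. The BAX window had 67.3% G and C and 38 CpG, and held CACGTG at 4 places, beginning 138, 93, 45 and 14 bases before the start site, where 7.26% of all promoters hold it at least once. These matches are descriptions of the letters, not of bound factors. BCL2L1 (with 2 start sites), BAK1 and BOK also had RefSeq promoters. Of the 8 members 6 matched, without MCL1 and BCL2L2.

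The libraries held 16495116 to 20832700 counts each, and 21063 genes passed the filter on low counts. STAMBP stood at 16.9 to 19.6 CPM (counts per 1000000 counts of TMM-scaled library size) in the 4 KO libraries, against 43.4 and 47.2 CPM in WT, so the knockout label is visible at the RNA level without a loss of the transcript. KO+STAMBP had 40.4 and 45.3 CPM of STAMBP, and 32.1 CPM of CFLAR in each library. RNA levels in the KO+CFLAR-labelled libraries went against the label: STAMBP was at 42.9 and 40.1 CPM there, near WT, and CFLAR was at 31.4 and 29.4 CPM, with 247 to 264 CPM in KO and 34.2 and 30.4 CPM in WT. The levels of STAMBP and CFLAR thus do not tell these libraries from KO+STAMBP. Whether the labels or the counting of construct reads differ from what the names say was not tested. These libraries are therefore named by their label throughout, and no KO comparison with WT changed its call for any member when they were left out of the fit. Markers of other cell types also moved with the groups. The summed level of 8 epithelial markers was 7801 to 8263 CPM in KO libraries, against 60.8 to 63.0 CPM in KO+STAMBP, 52.8 to 54.6 CPM in the KO+CFLAR-labelled libraries and 31.6 to 33.1 CPM in WT, and all 8 were higher in KO. The summed level of 8 neuronal markers was 688 to 712 CPM in KO, 5897 to 5956 CPM in KO+STAMBP, 5898 to 5972 CPM in the KO+CFLAR-labelled libraries and 3946 to 4003 CPM in WT, with NEUROD6 at 0 in both KO2 libraries. Of 9 neural progenitor markers 7 were lower in KO and 1 higher, with a median log2 change of -3.39 against WT. Their sum was 3199 to 3215 CPM in KO, 3807 to 3813 CPM in KO+STAMBP, 3903 to 3956 CPM in the KO+CFLAR-labelled libraries and 7235 to 7333 CPM in WT. In KO this sum was mostly VIM, which was at 2259 CPM and was not called against WT. In KO+STAMBP over KO, 6 of the 9 were higher and 3 lower, with a median of 2.74. In the KO+CFLAR-labelled libraries over KO, 6 were higher and 3 lower, with a median of 2.76. The part of these markers in the BCL2 family results was not tested. In bulk RNA, fewer cells of a type and less RNA per cell cannot be told apart.

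In KO, 7 of the 8 members were higher than in WT and BCL2 alone was lower, at an adjusted p under 0.05 in edgeR's quasi-likelihood test with Benjamini-Hochberg adjustment over all tested genes. Calls were common in this comparison: 76.2% of tested genes were called, 36.8% higher and 39.4% lower. All 8 being called is therefore near what most genes showed, and the description below turns on the size and direction of each member. BCL2A1 passed the filter through the knockout libraries alone; of the other 7 members, 6 were higher and 1 lower. The median log2 fold change was 1.45 over the 8 members and 1.41 without BCL2A1, against -0.04 over all tested genes. KO1 over WT gave the same calls, where 72.9% of tested genes were called (35.6% higher, 37.3% lower), and so did KO2 over WT, where 73.1% were called (35.8% higher, 37.3% lower).

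**Figure D1:**
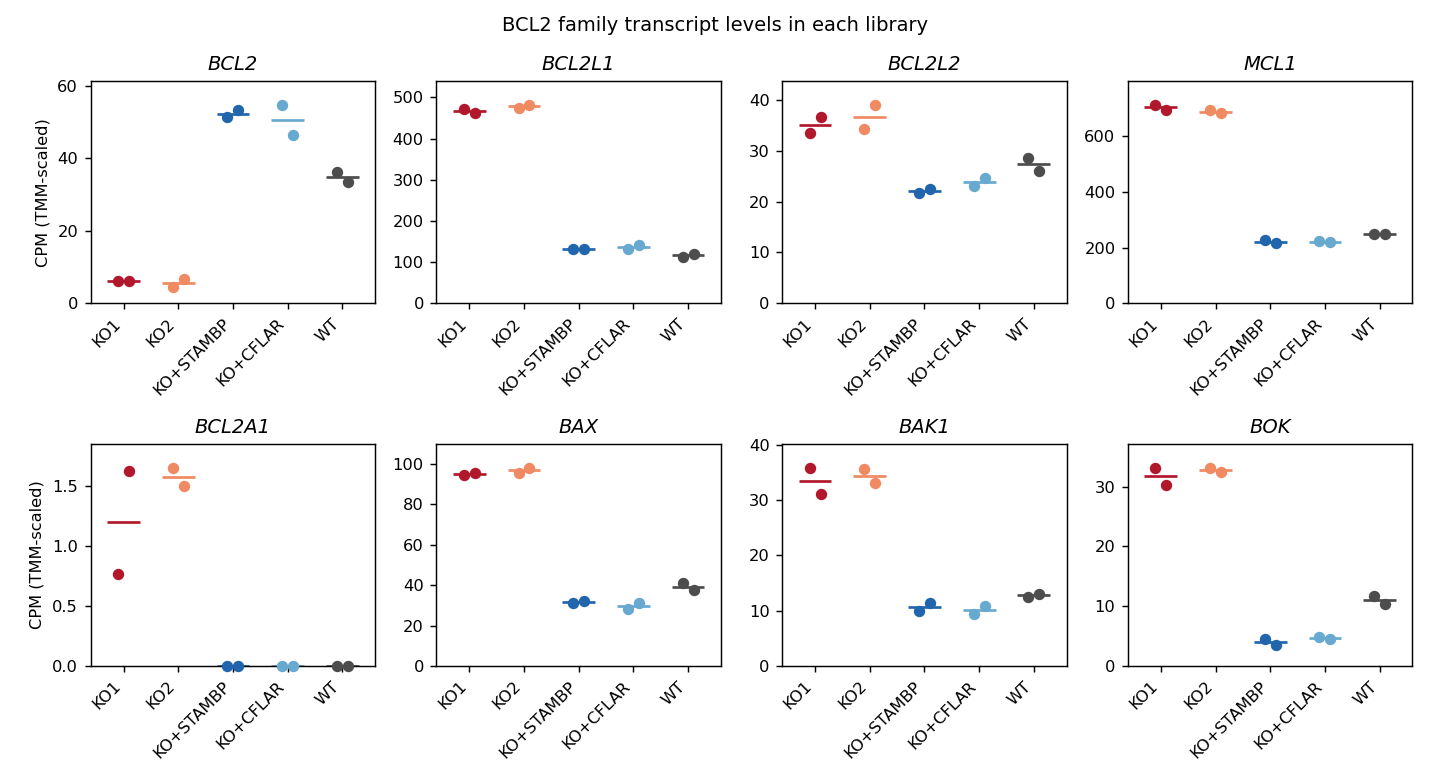
CPM, scaled by TMM, of each of the 8 genes (1 panel each, linear axis from 0) in each library; points are libraries and bars are group means. BCL2 is lowest in KO1 and KO2, BCL2A1 is at 0 outside them, and the other 6 genes are highest in KO1 and KO2.

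BCL2, the founding survival protein, was at 6.11, 6.12, 4.56 and 6.64 CPM in the KO libraries, against 36.3 and 33.3 CPM in WT. The KO libraries did not overlap WT, and BCL2 averaged 5.86 ± 0.90 CPM in KO (SD, n = 4) and 34.8 ± 2.1 CPM in WT (SD, n = 2). The log2 fold change was -2.56 ± 0.11 (SE, adjusted p = 1.81e-11), a level 5.89-fold lower, and 19.4% of tested genes had a change at least as large in either direction. In KO+STAMBP the level was 51.2 and 53.2 CPM, and in the KO+CFLAR-labelled libraries 54.7 and 46.4 CPM, above both WT libraries.

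BCL2L1, which encodes the survival protein BCL-XL, showed the opposite pattern. It was at 472, 462, 475 and 482 CPM in the KO libraries, 131 and 131 CPM in KO+STAMBP, 131 and 141 CPM in the KO+CFLAR-labelled libraries, and 114 and 120 CPM in WT. The 4 KO libraries spanned a narrow range far above the others, and the level in KO was 4.04-fold that in WT (log2 2.02 ± 0.04, SE, adjusted p = 2.56e-15). The antisense gene ABALON covers 1424 bases (43.0%) of the BCL2L1 exons but held 17 counts over the 10 libraries, against 46510 for BCL2L1.

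MCL1, a survival protein with a short half-life, was at 712, 694, 692 and 682 CPM in the KO libraries, 226 and 217 CPM in KO+STAMBP, 225 and 218 CPM in the KO+CFLAR-labelled libraries, and 249 and 249 CPM in WT. It was the most abundant of the 8 transcripts by CPM in every library. The level in KO was 2.79-fold that in WT (log2 1.48 ± 0.03, SE, adjusted p = 6.8e-15), and the KO range lay wholly above the other 6 libraries.

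BCL2A1, an NF-kappaB-responsive survival protein best known from blood cells, had 14, 25, 25 and 26 counts in the KO libraries, equal to 0.77, 1.63, 1.65 and 1.501 CPM, and 0 counts in each of the other 6 libraries. Taking 3 counts over a group as the floor, its KO mean of 1.39 CPM was at least 17.4-fold higher than in WT. The same floor gave at least 17.6-fold against KO+STAMBP and at least 20.1-fold against the KO+CFLAR-labelled libraries. These bounds cover counting error only, and the gene remained the least abundant member by CPM in every library. Of 5 blood markers, 4 were tested, without CD53. LCP1 and CD74 were higher in KO and PTPRC and CORO1A lower, where PTPRC had 6 counts in KO and 12 in WT. In KO2 over WT, 2 were higher, 1 was lower and 1 was not called. The summed level of the 5 markers was 92.9 to 96.1 CPM in KO, 27.8 to 29.1 CPM in KO+STAMBP, 26.6 to 28.5 CPM in the KO+CFLAR-labelled libraries and 19.5 to 20.5 CPM in WT. The KO sum was nearly all LCP1 (mean 41.2 CPM) and CD74 (mean 49.7 CPM). The leukocyte-defining genes PTPRC and CD53 were at 0 to 0.13 CPM and 0 to 0.20 CPM in KO. PTPRC was at 0.75 to 0.88 CPM in KO+STAMBP, 0.65 to 0.82 CPM in the KO+CFLAR-labelled libraries and 0.29 to 0.35 CPM in WT. CD53 was at most 0.05 CPM in KO+STAMBP, 0.14 CPM in the KO+CFLAR-labelled libraries and 0.15 CPM in WT. The cell source of the BCL2A1 reads was not tested.

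BCL2L2, which encodes BCL-W, changed least and is uncertain. It was at 33.5, 36.6, 34.3 and 39.0 CPM in the KO libraries, 21.8 and 22.4 CPM in KO+STAMBP, 23.0 and 24.6 CPM in the KO+CFLAR-labelled libraries, and 28.6 and 26.1 CPM in WT. The log2 fold change in KO over WT was 0.39 ± 0.07 (SE, adjusted p = 2.04e-04). BCL2L2 shares 813 exon bases (19.4% of its exons) with the readthrough gene BCL2L2-PABPN1, which held 4632 counts over the 10 libraries against 5268 for BCL2L2 itself. When the 2 rows were summed, a choice made after seeing the data, the level was 59.8 ± 0.9 CPM in KO (SD, n = 4) and 56.1 ± 6.0 CPM in WT (SD, n = 2), and the call ended (log2 0.09 ± 0.06, SE, adjusted p = 0.153). BCL2L2 also overlaps PPP1R3E on the opposite strand by 206 bases.

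The 3 effectors were higher in KO together. BAX, which moves from the cytosol to mitochondria on activation, was at 94.5, 95.5, 95.3 and 98.1 CPM in the KO libraries, 31.1 and 32.3 CPM in KO+STAMBP, 28.3 and 31.0 CPM in the KO+CFLAR-labelled libraries, and 40.9 and 37.5 CPM in WT. Its level in KO was 2.45-fold that in WT (log2 1.29 ± 0.05, SE, adjusted p = 1.31e-11), and no other library reached the KO range. BAK1, which resides in the mitochondrial membrane, was at 35.9, 31.1, 35.7 and 33.1 CPM in the KO libraries, 10.01 and 11.4 CPM in KO+STAMBP, 9.46 and 10.8 CPM in the KO+CFLAR-labelled libraries, and 12.5 and 13.1 CPM in WT. The KO libraries again stood apart, at 2.66-fold the WT level (log2 1.41 ± 0.09, SE, adjusted p = 3.74e-09). BOK, an effector less restrained by the survival proteins and held low by proteasomal turnover, was at 33.2, 30.2, 33.2 and 32.5 CPM in the KO libraries, 4.49 and 3.58 CPM in KO+STAMBP, 4.84 and 4.45 CPM in the KO+CFLAR-labelled libraries, and 11.6 and 10.4 CPM in WT. The BOK libraries lay at 3 separate levels, with KO+STAMBP and the KO+CFLAR-labelled libraries lowest, and KO stood at 2.94-fold the WT level (log2 1.56 ± 0.10, SE, adjusted p = 1.45e-09).

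**Figure D2:**
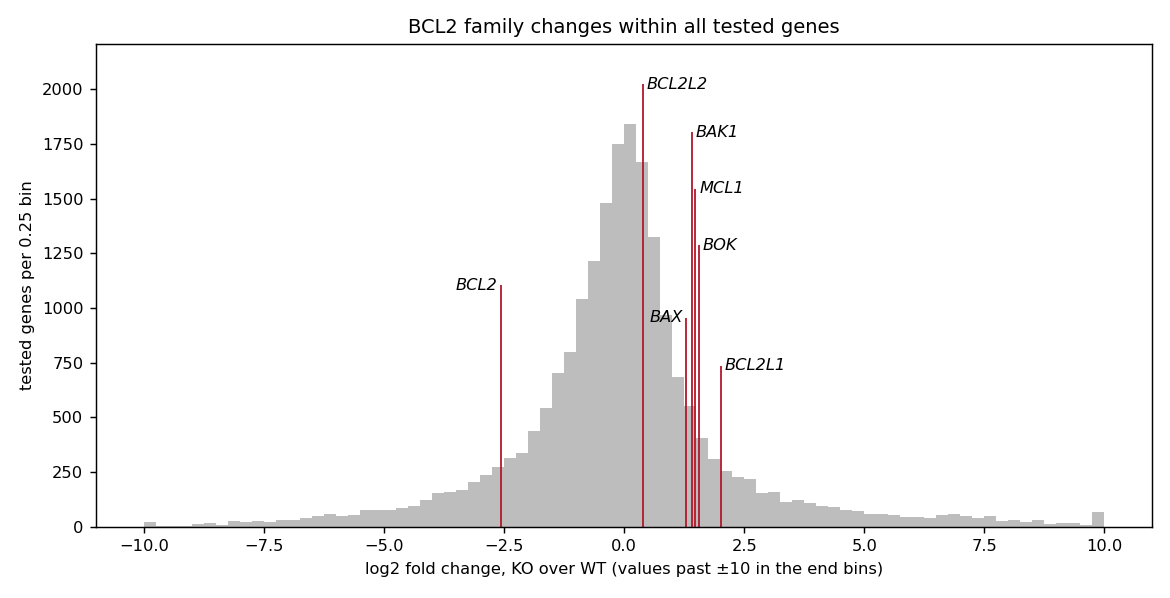
Histogram of the log2 fold change of KO over WT for all 21063 tested genes (x axis, bins of 0.25; y axis, genes per bin), with vertical lines at 7 members; line heights only separate the labels. BCL2 lies in the left flank at -2.56 and BCL2L1 in the right flank at 2.02; BCL2A1 is not drawn because WT has no count.

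Set within all tested genes, these changes were of ordinary size for this comparison. Changes at least as large in either direction were seen in 25.2% of tested genes for BCL2L1, 32.3% for BOK, 33.9% for MCL1, 35.5% for BAK1 and 38.2% for BAX. For BCL2L2 the share was 74.1%. No member separated the 2 knockout lines: 0 of 8 were called in KO1 over KO2, with adjusted p between 0.958 and 0.99, where 0.157% of tested genes were called (0.133% higher, 0.0237% lower; 33 genes, and 1196 at an unadjusted p under 0.05). That count was 58 without KO1 replicate 2 and 20 without KO2 replicate 2, with 0 members called in each.

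Both in KO+STAMBP and under the KO+CFLAR label, all 8 members differed from KO in the direction opposite to that of KO against WT. In KO+STAMBP over KO, BCL2 was higher and the other 7 members were lower, where 77.9% of tested genes were called (40.1% higher, 37.8% lower). Without BCL2A1, which has no counts outside KO, 1 was higher and 6 of the 7 were lower. In the KO+CFLAR-labelled libraries over KO the calls were the same, again with 6 of 7 lower without BCL2A1, where 78% of tested genes were called (40% higher, 38% lower). Both comparisons use the same KO libraries, and so does KO over WT, where they enter with the opposite sign. Opposite directions are thus partly built in. The share of all tested genes that reversed in this way was not counted. BCL2 changed by log2 3.15 ± 0.10 in KO+STAMBP over KO (SE, edgeR adjusted p = 7.45e-13) and by 3.10 ± 0.10 in the KO+CFLAR-labelled libraries over KO (SE, adjusted p = 7.64e-13). BOK changed by -3.00 ± 0.11 in KO+STAMBP over KO (SE, adjusted p = 4.73e-12) and by -2.80 ± 0.11 in the KO+CFLAR-labelled libraries over KO (SE, adjusted p = 5.65e-12). In KO+STAMBP over KO, the log2 changes were -1.85 for BCL2L1, -1.65 for MCL1, -1.60 for BAX, -1.66 for BAK1 and -0.70 for BCL2L2. In the KO+CFLAR-labelled libraries over KO they were -1.80 for BCL2L1, -1.65 for MCL1, -1.69 for BAX, -1.74 for BAK1 and -0.59 for BCL2L2. Without BCL2A1 the median over the members was -1.65 in KO+STAMBP over KO and -1.69 in the KO+CFLAR-labelled libraries over KO, against 0.04 over all tested genes in both.

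**Figure D3:**
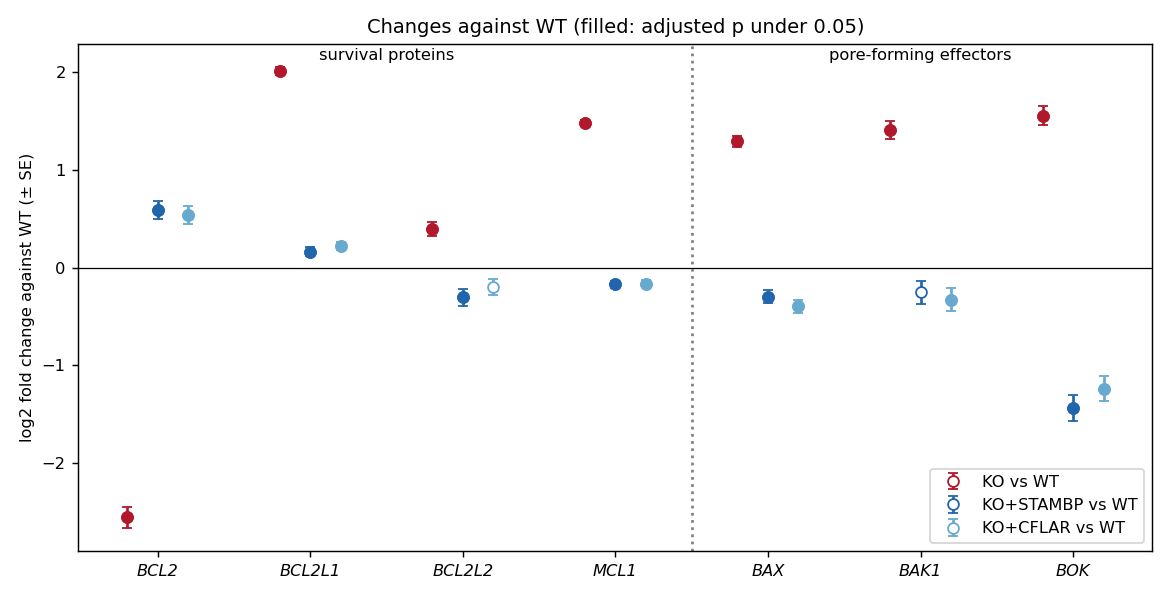
Log2 fold change against WT (y axis, points; bars are ± SE) of 7 members in KO, in KO+STAMBP and in the KO+CFLAR-labelled libraries; filled points have an adjusted p under 0.05 and BCL2A1 is left out because WT has no count. The KO+STAMBP and KO+CFLAR-labelled points lie near 0 for most members, above 0 for BCL2 and below -1 for BOK.

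Some members differed from WT in KO+STAMBP and in the KO+CFLAR-labelled libraries. In KO+STAMBP, 2 of the 8 members were higher than in WT, 4 were lower and 2 were not called, where 34.9% of tested genes were called (16.4% higher, 18.5% lower). In the KO+CFLAR-labelled libraries, 2 were higher, 4 lower and 2 not called, where 33.7% of tested genes were called (15.8% higher, 17.9% lower). BCL2A1 is among the 2 not called in each, because it had 0 counts in WT, KO+STAMBP and the KO+CFLAR-labelled libraries. Of the other 7 members, 2 were higher and 4 lower in each comparison. Both comparisons share the WT libraries. BCL2 overshot: it averaged 52.2 ± 1.4 CPM in KO+STAMBP, 50.6 ± 5.8 CPM in the KO+CFLAR-labelled libraries and 34.8 ± 2.1 CPM in WT (SD, n = 2 each), a log2 change against WT of 0.59 ± 0.10 in KO+STAMBP (SE, edgeR adjusted p = 2.2e-04) and 0.54 ± 0.09 in the KO+CFLAR-labelled libraries (SE, adjusted p = 4.32e-04). BOK went below WT, averaging 4.04 ± 0.64 CPM in KO+STAMBP, 4.64 ± 0.28 CPM in the KO+CFLAR-labelled libraries and 11 ± 0.9 CPM in WT (SD, n = 2 each). Its log2 change against WT was -1.44 ± 0.14 (SE, adjusted p = 1.44e-06) in KO+STAMBP and -1.24 ± 0.13 (SE, adjusted p = 3.96e-06) in the KO+CFLAR-labelled libraries. A change against WT at least as large was found in 6.51% of tested genes in KO+STAMBP and in 8.29% in the KO+CFLAR-labelled libraries.

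The remaining differences from WT were small. MCL1 was lower by log2 -0.17 in both (adjusted p = 0.00182 in KO+STAMBP and 0.00195 in the KO+CFLAR-labelled libraries, edgeR). BAX was lower by -0.30 in KO+STAMBP (adjusted p = 0.00261) and by -0.40 in the KO+CFLAR-labelled libraries (adjusted p = 2.82e-04). BCL2L1 was higher by 0.16 in KO+STAMBP (adjusted p = 0.0109) and by 0.22 in the KO+CFLAR-labelled libraries (adjusted p = 0.00134). Without WT replicate 1 the KO+STAMBP call of BCL2L1 ended (adjusted p = 0.118), as it did without either KO+STAMBP library (0.0618 and 0.0585). BCL2L2 was lower by -0.31 in KO+STAMBP (adjusted p = 0.0141), a call that ended without WT replicate 1 (0.114) and without either KO+STAMBP library (0.0871 and 0.0512). In the KO+CFLAR-labelled libraries its value was -0.20 (adjusted p = 0.0945), and -0.20 with BCL2L2-PABPN1 summed in (adjusted p = 0.0314). BAK1 was at -0.25 in KO+STAMBP (adjusted p = 0.121) and was lower by -0.33 in the KO+CFLAR-labelled libraries (adjusted p = 0.0429). That BAK1 call ended without WT replicate 1 (0.087), WT replicate 2 (0.198), KO2 replicate 1 (0.0523), KO2 replicate 2 (0.0504) or KO+CFLAR replicate 1 (0.256). For the 7 members with counts in WT, the 2 KO+STAMBP and 2 KO+CFLAR-labelled libraries did not overlap the WT range. The share of all tested genes without such overlap was not counted. Uncalled differences showed it too, as for BAK1 in KO+STAMBP and BCL2L2 in the KO+CFLAR-labelled libraries. With 2 libraries per group, it adds nothing to the calls. BCL2A1 had 0 counts in KO+STAMBP and in the KO+CFLAR-labelled libraries, so it could not be called between them. Of the other 7 members, 0 were called in the KO+CFLAR-labelled libraries over KO+STAMBP, with adjusted p between 0.653 and 0.999. There, 1.09% of tested genes were called (0.627% higher, 0.461% lower). Among tested genes, 2597 had an unadjusted p under 0.05 and 229 were called. That count was 27 without KO+STAMBP replicate 1, 29 without KO+STAMBP replicate 2 and 52 without KO+CFLAR replicate 1, with 0 members called in each.

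To compare the members with each other, CPM were divided by the union exon length of each gene in kilobases. On this scale of level per length, MCL1 was at 159 CPM per kb in KO, 50.6 in KO+STAMBP, 50.7 in the KO+CFLAR-labelled libraries and 56.9 in WT. BCL2L1 came next, at 143 CPM per kb in KO, 39.5 in KO+STAMBP, 41.1 in the KO+CFLAR-labelled libraries and 35.2 in WT. BAX led the effectors, at 37.1 CPM per kb in KO, 12.3 in KO+STAMBP, 11.5 in the KO+CFLAR-labelled libraries and 15.1 in WT. BCL2 was the lowest member in KO at 0.50 CPM per kb, against 4.44 in KO+STAMBP, 4.298 in the KO+CFLAR-labelled libraries and 2.96 in WT. With the mean length of the coding transcripts in place of the union, BCL2L1 stood above MCL1 in KO, KO+STAMBP and the KO+CFLAR-labelled libraries, while MCL1 stood above BCL2L1 in WT.

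**Figure D4:**
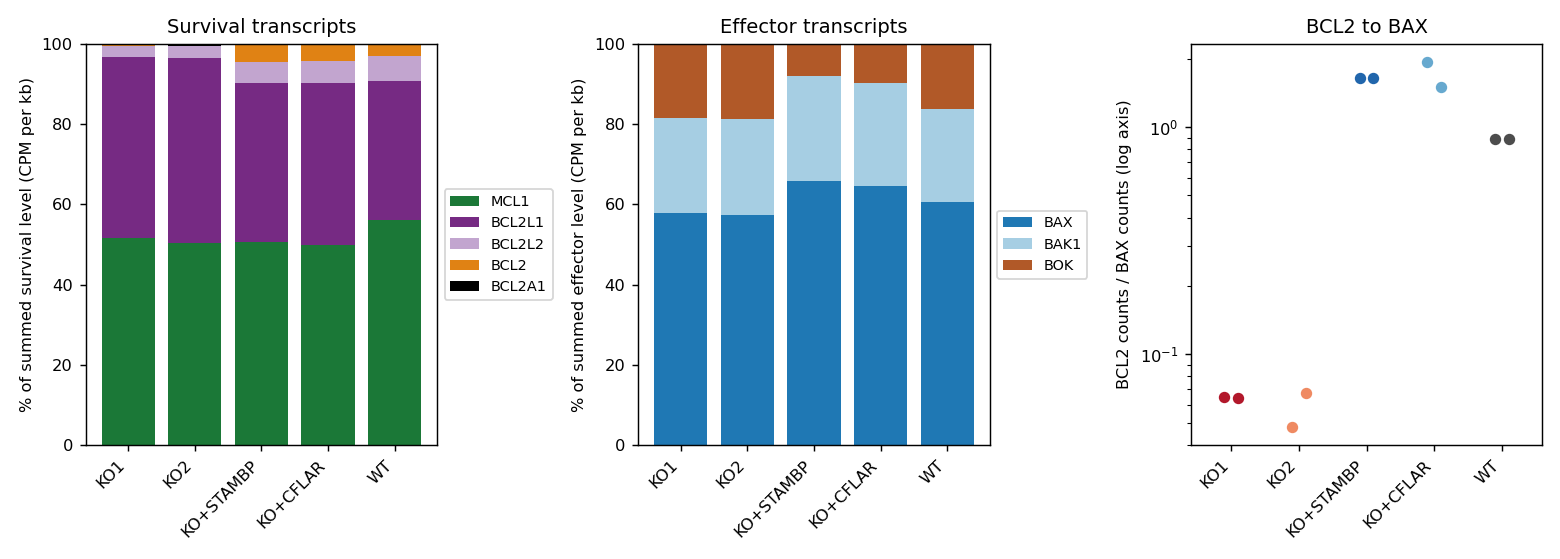
Left and middle, the mean share (%, linear axis from 0 to 100) of each gene in the summed CPM per kb of the 5 survival genes and of the 3 effectors, by group; right, the ratio of BCL2 counts to BAX counts in each library on a log axis. BCL2 takes 0.16% of the survival sum in KO and 2.91% in WT, and its ratio to BAX is lowest in the 4 KO libraries.

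The make-up of the survival sum differed between the groups. BCL2L1 took 45.7% of the summed survival level per length in KO, 39.6% in KO+STAMBP, 40.4% in the KO+CFLAR-labelled libraries and 34.7% in WT. BCL2 took 0.16% in KO, 4.45% in KO+STAMBP, 4.23% in the KO+CFLAR-labelled libraries and 2.91% in WT. MCL1 took 51.0% in KO, 50.7% in KO+STAMBP, 49.8% in the KO+CFLAR-labelled libraries and 56.0% in WT. Among the effectors, BOK took 18.5% in KO, 8.03% in KO+STAMBP, 9.68% in the KO+CFLAR-labelled libraries and 16.3% in WT. These shares depend on the length used. With the mean coding transcript length, BCL2L1 took 55.2% and MCL1 39.0% of the survival sum in KO, against 41.6% for BCL2L1 and 42.6% for MCL1 in WT. BOK then took 7.06% of the effector sum in KO, 2.81% in KO+STAMBP, 3.44% in the KO+CFLAR-labelled libraries and 6.0% in WT.

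The summed survival level and the summed effector level were both highest in KO. The 5 survival genes summed to 312 ± 2 CPM per kb in KO (SD, n = 4), 99.8 ± 1.3 in KO+STAMBP, 102 ± 1 in the KO+CFLAR-labelled libraries and 102 ± 1 in WT (SD, n = 2 each). The 3 effectors summed to 64.3 ± 1.5 CPM per kb in KO (SD, n = 4), 18.6 ± 0.6 in KO+STAMBP, 17.8 ± 1.1 in the KO+CFLAR-labelled libraries and 24.96 ± 1.07 in WT (SD, n = 2 each). Survival over effector sums gave a ratio of 4.85 ± 0.08 in KO (SD, n = 4), 5.37 ± 0.23 in KO+STAMBP, 5.74 ± 0.30 in the KO+CFLAR-labelled libraries and 4.08 ± 0.21 in WT (SD, n = 2 each). The ratio of BCL2 to BAX counts, by contrast, was lowest in KO. It was 0.06 ± 0.01 in KO (SD, n = 4), between 0.048 and 0.068, against 1.65 in KO+STAMBP, 1.71 in the KO+CFLAR-labelled libraries and 0.89 in WT. BCL2L1 to BAX counts went the other way and were highest in KO. That ratio was 4.93 in KO, 4.13 in KO+STAMBP, 4.59 in the KO+CFLAR-labelled libraries and 2.99 in WT. The ratio of BCL2L1 to BCL2 counts was 82.3 in KO, 2.51 in KO+STAMBP, 2.72 in the KO+CFLAR-labelled libraries and 3.37 in WT, while MCL1 to BAK1 was 20.5 ± 1.3 in KO (SD, n = 4), 20.8 ± 2.6 in KO+STAMBP, 22.0 ± 2.6 in the KO+CFLAR-labelled libraries and 19.5 ± 0.6 in WT (SD, n = 2 each). No test was run on these ratios.

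The 7 members with counts in every group fell into 3 kinds of order of their group means. BCL2 ran KO+STAMBP, KO+CFLAR-labelled libraries, WT, KO1, KO2 in falling level. BCL2L1 ran KO2, KO1, KO+CFLAR-labelled libraries, KO+STAMBP, WT. The order of BCL2L2, MCL1, BAX, BAK1 and BOK placed KO1 and KO2 first, WT next, and KO+STAMBP and the KO+CFLAR-labelled libraries last. KO1 and KO2 were neighbours in every order, as were KO+STAMBP and the KO+CFLAR-labelled libraries, and no member was called within either pair.

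Each member's nearest neighbours in profile were found among 15384 tested genes with a mean of at least 2 CPM, by the root mean square difference of centred log2 CPM over the 10 libraries. CCSAP lay nearest to BCL2 at 0.08, ahead of HIF3A at 0.12 and UNC13C at 0.13. CERCAM and C1GALT1 lay nearest to BCL2L1, at 0.05 and 0.06. TMEM30A, YPEL2 and CDC42SE1 lay nearest to MCL1, at 0.04, 0.05 and 0.05. IFNAR1, ATF5 and CCDC47 lay nearest to BCL2L2, at 0.05, 0.06 and 0.06. For the effectors, TXNDC5, GSTO1 and ARCN1 lay nearest to BAX at 0.04, 0.05 and 0.06, and ARHGAP17, PIGA and APLP2 lay nearest to BAK1, at 0.08, 0.09 and 0.09. ZC3HAV1, SEMA5A and ITPRID2 lay nearest to BOK, at 0.11, 0.13 and 0.15. Because the libraries fall into a few group levels, many genes share such a profile. For BCL2A1, with few counts, the nearest genes GPR157, MUC19 and ALCAM were farther away, at 0.24, 0.25 and 0.26.

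**Figure D5:**
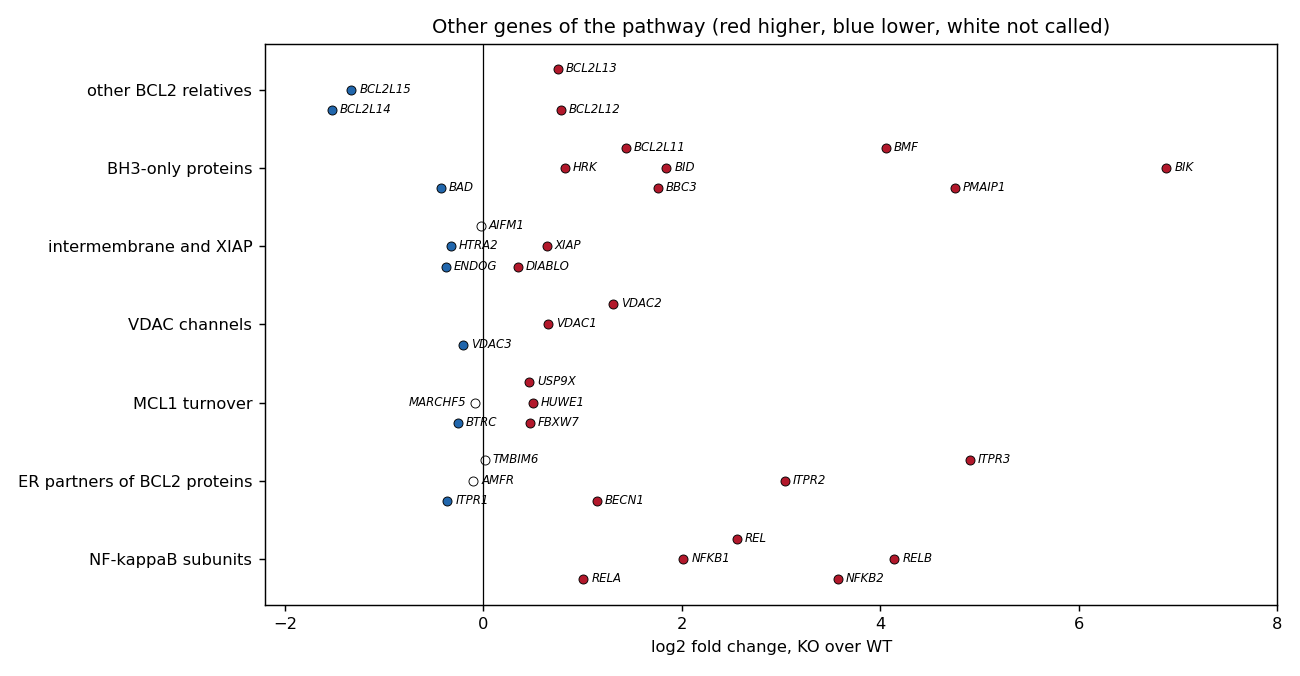
Log2 fold change of KO over WT (x axis) for the tested genes of 7 other lists of the pathway (rows); red points were called higher, blue points lower and white points were not called. BIK, ITPR3 and PMAIP1 lie farthest to the right. BCL2L14, which had few counts and was not called in KO1 over WT, lies farthest to the left.

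Other genes of the pathway were counted in lists, for KO over WT, where 76.2% of tested genes were called (36.8% higher, 39.4% lower). Of 8 BH3-only genes, 7 were higher and 1 was lower (BAD, named after its value was seen), with a median log2 change of 1.80. BMF, a sensor of cytoskeletal stress, was at 300 CPM in KO and 18.0 CPM in WT (log2 4.06 ± 0.05, SE, edgeR adjusted p = 2.52e-17), and PMAIP1, which encodes the MCL1-binding protein NOXA, was at 194 CPM in KO and 7.18 CPM in WT. BID was higher by 1.85 and BIK, at 16.5 CPM in KO and 0.14 CPM in WT, by 6.88. Of 4 tested other BCL2 relatives, BCL2L13 (0.75) and BCL2L12 (0.78) were higher and BCL2L15 (-1.33) and BCL2L14 (-1.53) lower, and BCL2L10 was not tested. BCL2L14 had few counts, with 16 in KO1, 3 in KO2 and 23 in WT. It was called lower in KO2 over WT (-2.67) but was not called in KO1 over WT (-0.38).

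Among genes around the mitochondrion, the 5 intermembrane and IAP genes had 2 higher, 2 lower and 1 not called. XIAP, a caspase inhibitor, was higher by 0.64 and its antagonist DIABLO by 0.35, while HTRA2 (-0.32) and ENDOG (-0.38) were lower. In KO1 over WT, HTRA2 (-0.45) and ENDOG (-0.41) were called lower. Neither was called in KO2 over WT, at -0.20 for HTRA2 and -0.34 for ENDOG. No gene of this list was called in KO1 over KO2. Of the 3 VDAC channels of the outer membrane, VDAC2, which holds BAK1, was higher by 1.31 and VDAC1 by 0.65, and VDAC3 was lower by -0.21. Of 5 genes of MCL1 turnover in the file, 3 were higher, 1 lower and 1 not called: the ubiquitin ligases HUWE1 (0.50) and FBXW7 (0.47) and the deubiquitinase USP9X (0.46) were higher, and BTRC (-0.26) was lower. Of 6 partners at the endoplasmic reticulum, 3 were higher, 1 lower and 2 not called. The calcium channel gene ITPR3 was at 291 CPM in KO and 9.77 CPM in WT (log2 4.90 ± 0.06, SE, edgeR adjusted p = 2.42e-17). ITPR2 was higher by 3.04, and BECN1, an autophagy protein that BCL2 binds, by 1.14. ITPR1 was lower by -0.36, but was not called in KO1 over WT or in KO2 over WT. All 5 NF-kappaB subunit genes were higher, where 36.8% of all tested genes were, with NFKB2 at 3.58, NFKB1 at 2.02, RELB at 4.14 and RELA at 1.01.

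In KO+STAMBP over KO, 6 of 8 BH3-only genes were lower, 1 was higher and 1 was not called, and all 5 NF-kappaB genes were lower, where 77.9% of tested genes were called and 37.8% were lower. For the KO+CFLAR-labelled libraries over KO, 6 of 8 BH3-only genes were lower, 1 was higher and 1 was not called, and all 5 NF-kappaB genes were lower, where 78% of tested genes were called and 38% were lower.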

How the data were processed

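The authors deposited raw whole-number read counts per gene for 10 libraries. Tools in the submitters' processing notes are RSEM 1.2.4, fastp 0.20.0 and DESeq2, listed without roles beside the builds GRCh38 and hg38. The sources used here give no strand setting, so reads of overlapping genes cannot be told apart by strand. The table covers 60898 rows, 8314 of them with a locus name beginning MSTRG, BAX and BCL2L1 included. From the counts, edgeR 4.0.16 in R 4.3.3 fitted TMM-scaled quasi-likelihood models with a mean for each of the 5 groups (5 residual degrees of freedom) on the 21063 genes kept by filterByExpr, and p-values were Benjamini-Hochberg adjusted over all of them, with calls at 0.05. CPM are TMM-scaled, and SE is the change divided by the root of F. The fit was also tested on simulated data, with an outcome that is not reported here. Positions and exon lengths come from GENCODE on GRCh38. Named genes are all members, STAMBP and CFLAR, the 3 nearest profiles of each member, up to 4 genes of each list by smallest adjusted p, and genes overlapping a member; a few of these genes and the lists that hold them are not reported here. The members and lists were chosen with earlier results of these data known. Floors and bounds take 3 counts and cover counting error only. Alternatives were other scalings, filters, DESeq2 1.42.0 in place of edgeR, a replicate block, fits on the compared groups alone and each library left out.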

Additional observations from a re-analysis of the deposited data

How the results depend on the processing

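Under the other scalings, filters, tests and left-out libraries, every member with counts on at least 1 side kept its direction against WT and against KO. Uncalled values between KO1 and KO2, or between KO+STAMBP and the KO+CFLAR-labelled libraries, changed sign in places. Under those settings no member call changed in KO or KO2 against WT, in KO+STAMBP or the KO+CFLAR-labelled libraries against KO, or within those 2 pairs. Summing BCL2L2 with BCL2L2-PABPN1, chosen after seeing the data, ended the BCL2L2 call in KO (adjusted p = 0.153), KO1 (0.295) and KO2 (0.16) against WT. BCL2A1 had no value under the 50-count filter and, between groups without counts, in some DESeq2 and compared-groups fits, nor had BOK between KO+STAMBP and the KO+CFLAR-labelled libraries with DESeq2. BAK1 in the KO+CFLAR-labelled libraries against WT lost its call with library size alone (adjusted p = 0.0618), DESeq2 (0.0606) and only the groups compared (0.0525), and BCL2L2 in KO1 against WT lost it with library size alone (0.0519). Over 10 pairs of groups, deviations from group means correlated between -0.021 and 0.072, so libraries with the same replicate number shared little gene-wide deviation. Whether they were paired by culture or batch cannot be told from these correlations. With a replicate block, 16036 genes were called in KO against WT, and BAK1 in the KO+CFLAR-labelled libraries against WT had an adjusted p of 0.0523; no other member call changed with the block. Genes called in KO1 against KO2 were 251 with no filter, and 20 to 58 with 1 library left out. In the KO+CFLAR-labelled libraries against KO+STAMBP the counts were 780 with no filter, 372 with DESeq2 and 27 to 313 with 1 library left out, and library size alone gave 108 higher and 122 lower, against 132 and 97. Library size alone also moved the median log2 change of all genes in KO against WT to -0.22. With the mean coding transcript length, the survival to effector ratio was 3.58 in KO, 3.71 in KO+STAMBP, 4.04 in the KO+CFLAR-labelled libraries and 2.94 in WT, and the rank was kept by 3 of the 8 members in KO, 4 in KO+STAMBP, 4 in the KO+CFLAR-labelled libraries and 5 in WT; without 1 of its libraries, 6 to 8 members kept theirs in the group labelled KO+CFLAR. The cause of these differences was not tested. BCL2A1, at 0 to 26 counts per library, is limited by depth.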

Other observations

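Some pathway genes, chosen here after their values were seen, were below WT in KO+STAMBP and in the KO+CFLAR-labelled libraries, as BOK was. ITPR3 was at 1.74 CPM in KO+STAMBP, 1.84 CPM in the KO+CFLAR-labelled libraries and 9.77 CPM in WT (log2 against WT -2.48 in KO+STAMBP and -2.40 in the KO+CFLAR-labelled libraries, both called). Among BH3-only genes, PMAIP1 was lower than in WT by -0.98 in KO+STAMBP and -0.84 in the KO+CFLAR-labelled libraries. BCL2L11, which encodes BIM, was lower by -0.74 in KO+STAMBP and -0.78 in the KO+CFLAR-labelled libraries, while BID was higher by 0.52 in both. More of the 8 BH3-only genes were higher than lower. In KO+STAMBP over WT, 4 were higher and 2 lower (median log2 change 0.40), where 34.9% of tested genes were called (16.4% higher, 18.5% lower). In the KO+CFLAR-labelled libraries over WT, 4 were higher and 2 lower (median 0.35), where 33.7% of tested genes were called (15.8% higher, 17.9% lower). TMBIM6, a channel protein of the endoplasmic reticulum that dampens BAX-driven death, was at 657 CPM in KO, 450 CPM in KO+STAMBP, 449 CPM in the KO+CFLAR-labelled libraries and 650 CPM in WT. KO over WT had a log2 change of 0.02 (adjusted p = 0.62), and the level was lower than in WT by -0.53 in both KO+STAMBP and the KO+CFLAR-labelled libraries.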
